A study of Homo sapiens with 15 samples.

Results

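Transcript levels of 40 genes of ribosome biogenesis and the nucleolus were measured in MRC5 lung fibroblasts and H196 small cell lung cancer cells, cultured alone or with each other. The genes were taken by name as rows of the 2 deposited gene tables, and all 40 were found among the 16382 genes listed for MRC5 and the 16076 genes listed for H196. The study asked how fibroblasts and small cell lung cancer cells change each other when they share a culture. MRC5 is a line of normal human lung fibroblasts, H196 is a non-neuroendocrine line of small cell lung cancer, and H69 is a neuroendocrine one. Each group held 3 libraries of poly(A) RNA. MRC5_Mo was MRC5 cells cultured separately, MRC5_CoH69 was MRC5 cells co-cultured with H69, and MRC5_CoH196 was MRC5 cells co-cultured with H196. H196_Mo was H196 cells cultured separately, and H196_Co was H196 cells co-cultured with MRC5. The partner line grew on the membrane of a transwell insert and the profiled cells in the well beneath it, so each library came from 1 line, no cell carried a genetic change made by the study, and each response was seen in a single line. The labels do not say whether the 3 libraries of a group came from separate cultures, so p-values measure only the spread between these libraries.

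Ribosomes are built in the nucleolus. RNA polymerase I transcribes the rRNA precursor, small nucleolar ribonucleoproteins (snoRNPs) guide its chemical modification, and large sets of assembly factors fold, cut and export the small and large subunits. Cells raise this programme when they grow and divide, and nucleolar size has long been read as a sign of growth in tumours. The genes fall into 6 roles: 3 encode the box C/D snoRNP, which adds methyl groups to rRNA, 4 the box H/ACA snoRNP, which makes pseudouridine, 4 the transcription machinery of RNA polymerase I, 3 abundant nucleolar phosphoproteins, 10 factors of small subunit assembly and 16 factors of large subunit assembly.

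Promoter sequence was available in RefSeq (GRCh38.p14) for 33 of the 40 genes, as windows of 250 bases before and 50 bases from the annotated start; NOP58, NOLC1, RRP12, BOP1, RRP1B, RRS1 and DDX18 had no entry. The windows were searched on both strands for CACGTG, the letters of the canonical E-box, which several basic helix-loop-helix factors bind. It was present in 16 of the 33 genes (48.5%), against 8.77% of all 27305 genes in the table and 12.6% of the 10387 genes tested in MRC5 that had a window. In every one of the 16 genes a match lay within 40 bases of the start, a distance chosen after the positions were seen, and 94.1% of the 17 matches lay there, against 27.7% of the 2821 matches in all windows. The 6 stretches that follow set strong fallers in MRC5_CoH196 (RRP9, UTP20, UTP4 and NOP16) beside genes that did not fall (FBL and WDR43), and were picked after the values were seen. Each runs 5′ to 3′ in the direction of the gene, from 100 bases before the start through 30 bases from it, with the E-box in capitals, and NOP16 holds none.
RRP9 (chr3:51941875-51942004, minus strand): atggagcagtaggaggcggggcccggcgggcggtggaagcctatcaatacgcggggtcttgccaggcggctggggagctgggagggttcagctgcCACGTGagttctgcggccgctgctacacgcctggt
UTP20 (chr12:101280005-101280134, plus strand): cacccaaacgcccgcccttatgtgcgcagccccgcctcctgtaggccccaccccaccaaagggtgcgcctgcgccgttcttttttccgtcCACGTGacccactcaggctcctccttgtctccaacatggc
UTP4 (chr16:69132549-69132678, plus strand): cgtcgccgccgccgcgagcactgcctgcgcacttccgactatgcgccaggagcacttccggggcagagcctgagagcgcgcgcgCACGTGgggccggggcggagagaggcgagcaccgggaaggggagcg
FBL (chr19:39846350-39846479, minus strand): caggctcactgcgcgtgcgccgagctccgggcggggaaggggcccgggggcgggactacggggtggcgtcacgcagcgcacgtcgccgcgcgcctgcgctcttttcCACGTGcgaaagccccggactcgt
WDR43 (chr2:28894567-28894696, plus strand): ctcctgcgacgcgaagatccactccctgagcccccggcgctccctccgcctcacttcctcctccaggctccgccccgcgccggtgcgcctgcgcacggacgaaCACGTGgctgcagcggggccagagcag
NOP16 (chr5:176388569-176388698, minus strand): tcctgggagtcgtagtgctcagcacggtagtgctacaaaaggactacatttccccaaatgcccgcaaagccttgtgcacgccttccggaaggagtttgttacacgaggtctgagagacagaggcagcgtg
The motif began 5 bases before the start in RRP9, 10 before it in UTP20 and 16 before it in UTP4, and at base 7 of the transcript in FBL and base 4 in WDR43. Related letters were also common in these windows. CACGCG was found in 10 of the 33 genes (30.3%; 13.5% of all genes and 22.4% of the tested genes with a window), GCGTG, which lies inside its other strand CGCGTG, in 25 (75.8%; 40.6% and 58.5%), and ACGTG, which lies inside CACGTG, in 19 (57.6%; 24.9% and 32.3%). These matches describe the letters only.

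The libraries held 16073597 to 19170560 counts, and the 40 genes were well covered, with a lowest count of 106 in any MRC5 library and 299 in any H196 library. All 40 passed the filter on low counts in each fit. Fibroblast markers (10 genes) summed to 20963 to 39351 CPM (counts scaled by library size) in the MRC5 libraries and to 2.24 to 3.8 in the H196 libraries, where COL1A2 was at 0 in H196_Mo and THY1 was not listed. Neuroendocrine markers (7 genes) summed to 0.576 to 1.12 CPM in MRC5 and to 24.8 to 27.4 in H196. NEUROD1, INSM1, CHGA and GRP were not listed for MRC5, and INSM1 and GRP were not listed for H196, whose main neuroendocrine signal was SYP. Epithelial markers (5 genes) set the lines less apart, at 125 to 167 CPM in MRC5 and 212 to 273 in H196. KRT18 led their sum in each group, and CDH1 was at 0 in MRC5_Mo and H196_Mo. The labels named no batch, and no library went against its label in the fibroblast and neuroendocrine markers.

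MRC5 cells co-cultured with H196 carried less mRNA for nearly the whole ribosome-building set. Of the 40 genes, 36 fell against MRC5_Mo, 1 rose and 3 were not called at an adjusted p under 0.05 (edgeR's quasi-likelihood test with Benjamini-Hochberg adjustment over all 12819 genes tested). Among all genes tested, 37.1% fell and 37.2% rose. By the stricter rule, which also asks for an absolute log2 fold change above 0.58 (DEG), 28 of the 40 fell and 0 rose, against 14.7% and 17.2% of all genes. The median log2 fold change was −0.86 over the 40 genes, a 1.81-fold lower level, and −0.003 over all genes tested. The 3 MRC5_CoH196 libraries lay below all 3 MRC5_Mo libraries for 36 of the 40, against 37.9% of all genes. A log2 fold change below −1 was seen in 16 of the 40, and no share of all genes is given beside that count. In bulk RNA, less RNA per cell and fewer cells that express a gene cannot be told apart.

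The scale mattered for the small changes. With library totals in place of TMM factors, the median of all genes moved to −0.18, and 27% of all genes rose and 49.1% fell. The median of the 40 moved to −1.03. Such a change of scale moves all genes alike, so the distance between the set and all genes, −0.85 under both, could not differ and is no check. On FPKM, counts scaled by gene length and library size, that distance was −0.77 for log2(FPKM + 1) and −0.85 for log2(FPKM + 0.1). Of the genes nearest 0, FBL and RRN3 changed sign with the scaling, and NPM1 and WDR43 stayed below 0 but were called only without TMM factors, as given with each of them. The share of all counts within each library is on the scale of library totals, with no TMM factors. The 40 genes made up 0.355%, 0.376% and 0.379% of all counts in MRC5_Mo, 0.337%, 0.339% and 0.345% in MRC5_CoH69, and 0.231%, 0.232% and 0.227% in MRC5_CoH196. NPM1 alone gave 0.0757% to 0.0842% in MRC5_Mo and 0.0687% to 0.0705% in MRC5_CoH196, so most of the drop in the share came from the other 39 genes, which went from 0.279% to 0.296% down to 0.157% to 0.162%.

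**Figure D1:**
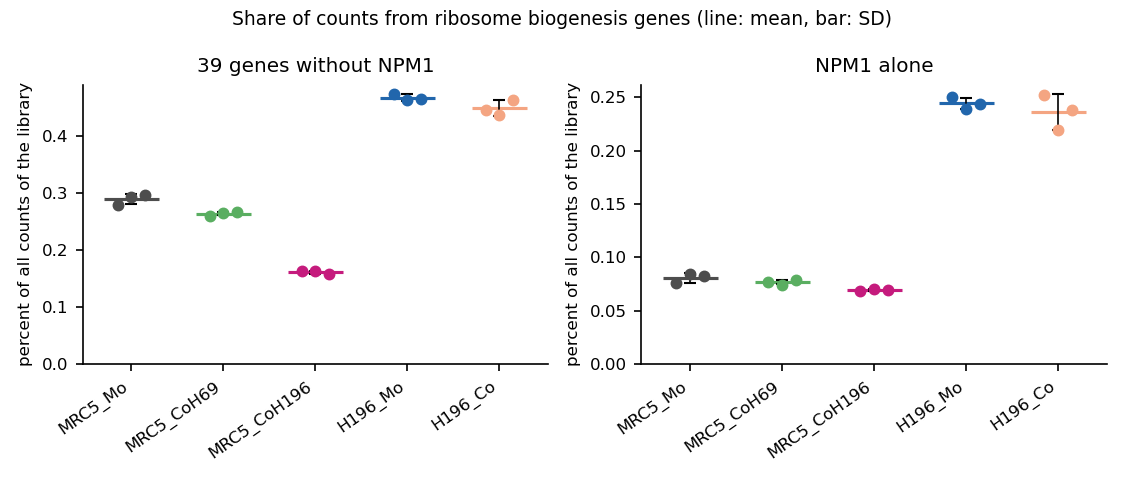
Percent of all counts of a library that came from the 39 genes other than NPM1 (left) and from NPM1 (right), for the 3 libraries of each group as points, with the mean as a line and the SD as a bar. The MRC5_CoH196 libraries (0.157% to 0.162%) sit below the MRC5_Mo libraries (0.279% to 0.296%) on the left, and the H196 libraries lie above both.

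Genes of DNA replication and mitosis moved in the same libraries. Their level over 20 genes, summed on library totals, was 1711 to 1994 CPM in MRC5_Mo and 961 to 1014 in MRC5_CoH196. By the calls with TMM factors 19 of the 20 fell and 1 rose, against 37.1% and 37.2% of all genes. Fibroblast markers, also on library totals, summed to 33964 to 37638 CPM in MRC5_Mo and 20963 to 21910 in MRC5_CoH196. By the calls with TMM factors, however, 6 of the 10 rose and 3 fell, to be read against the same shares. The part of either in the change of the ribosome biogenesis genes was not tested.

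Among RNA polymerase I genes, 3 of 4 fell and RRN3 was not called. POLR1B (chr2:112542036-112579818 in GRCh38.p13, as are the gene positions below), which encodes the second-largest subunit, was at 16.1, 17.5 and 18.4 CPM in MRC5_Mo and 6.08, 7.13 and 7.69 in MRC5_CoH196. The 2 groups were far apart, with a log2 fold change of −1.32 ± 0.10 (SE; edgeR adjusted p = 6.29e-12). POLR1A, the largest subunit, fell by 1.21 on the log2 scale and UBTF, which binds and opens the rRNA genes, by 1.08. RRN3, the factor that joins the polymerase to the promoter complex, was at 45.6, 49.7 and 46.2 CPM in MRC5_Mo and 50, 45.3 and 47 in MRC5_CoH196. Those libraries overlapped, with a log2 difference of 0.01 ± 0.05 (edgeR adjusted p = 0.888) that was −0.17 with library totals (edgeR adjusted p = 0.00729). RRN3 has near-identical copies in the genome, and its count is uncertain to that extent.

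In the box C/D snoRNP the mRNAs for the 3 proteins of 1 particle parted. NOP56 (chr20:2652632-2658393), a core scaffold protein, was at 90.8, 95.3 and 100 CPM in MRC5_Mo and 39.1, 40.1 and 36.7 in MRC5_CoH196. It was 2.47-fold lower, with a log2 fold change of −1.30 ± 0.05 (edgeR adjusted p = 5.06e-17). NOP58, its partner in the scaffold, fell by 0.81. FBL, the methyltransferase fibrillarin, was at 95.4, 92.1 and 103 CPM in MRC5_Mo and 111, 99.8 and 103 in MRC5_CoH196. These libraries overlapped, and the log2 fold change of 0.11 ± 0.05 only just passed (edgeR adjusted p = 0.0456). It was −0.06 with library totals (edgeR adjusted p = 0.26), and the call was lost in DESeq2 (adjusted p = 0.0576), without a filter on low counts (edgeR adjusted p = 0.0621), with only MRC5_CoH196 and MRC5_Mo in the fit (edgeR adjusted p = 0.0789), and without MRC5_Mo replicate 1 or 2, MRC5_CoH69 replicate 1 or 2, or MRC5_CoH196 replicate 1 (edgeR adjusted p from 0.0561 to 0.242).

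All 4 box H/ACA genes fell. GAR1 (chr4:109812818-109824737), which helps release the modified RNA, was at 15.1, 15 and 15.3 CPM in MRC5_Mo and 7.67, 6.1 and 6.49 in MRC5_CoH196, a log2 fold change of −1.16 ± 0.10 (edgeR adjusted p = 5.22e-11). DKC1, the pseudouridine synthase dyskerin, fell by 0.90 and NHP2 by 0.73. NOP10 (chr15:34341719-34343136), a small protein that stabilises dyskerin, was at 53.7, 55.4 and 56.1 CPM in MRC5_Mo and 46.8, 42.7 and 40.1 in MRC5_CoH196. The groups did not overlap, but the log2 fold change was only −0.35 ± 0.06 (edgeR adjusted p = 4.16e-06).

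Of the nucleolar phosphoproteins, NOLC1 and NCL fell and NPM1 was not called. NOLC1 (chr10:102152370-102163870), a chaperone of snoRNPs, was at 90.1, 93.7 and 92.9 CPM in MRC5_Mo and 50.1, 53.6 and 48.2 in MRC5_CoH196, a log2 fold change of −0.86 ± 0.05 (edgeR adjusted p = 6.63e-14). NCL, nucleolin, fell by 0.61. NPM1, nucleophosmin, which forms the granular outer layer of the nucleolus, was at 724, 805 and 789 CPM in MRC5_Mo and 746, 749 and 757 in MRC5_CoH196. The MRC5_CoH196 values lay inside the range of MRC5_Mo, with a log2 difference of −0.04 ± 0.04 (edgeR adjusted p = 0.37) that passed only where TMM was not used, at −0.22 with library totals (edgeR adjusted p = 4.45e-05) and −0.20 on log2(FPKM + 1) (limma adjusted p = 0.00172). NPM1 has many processed copies in the genome that could share its reads.

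The widest range was in small subunit assembly, where 9 of 10 genes fell, 7 of them as DEGs. RRP9 (chr3:51933429-51941904), a protein of the U3 snoRNP that is needed for the first cuts of the precursor, was at 23.6, 26.8 and 27.3 CPM in MRC5_Mo and 9.43, 8.11 and 7.63 in MRC5_CoH196. It had the lowest log2 fold change of the 40, −1.63 ± 0.09, a 3.09-fold lower level (edgeR adjusted p = 1.38e-14). UTP20, a large scaffold of the same processome, fell by 1.35, PNO1 by 1.13 and NOC4L by 1.09. NOP14 fell by 0.27 and RRP12, an export factor, by 0.23. WDR43 (chr2:28894667-28948219), one of the first factors to join the precursor, was at 58.7, 57.9 and 61.3 CPM in MRC5_Mo and 59.5, 58.3 and 54.9 in MRC5_CoH196. Those libraries overlapped, with a log2 difference of −0.04 ± 0.05 (edgeR adjusted p = 0.459) and of −0.22 with library totals (edgeR adjusted p = 0.000673). UTP4 and UTP15, which join the precursor in the same early complex as WDR43, fell by 0.94 and 1.07.

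All 16 genes of large subunit assembly fell, 11 of them as DEGs, with a median log2 fold change of −0.71. RRS1, which brings the 5S ribonucleoprotein into the subunit, was at 57, 71.7 and 69.5 CPM in MRC5_Mo and 24, 20.9 and 23.3 in MRC5_CoH196, a log2 fold change of −1.54 ± 0.07 (edgeR adjusted p = 1.52e-15). NOP16 fell by 1.52, NOP2, an rRNA methyltransferase, by 1.35, NIP7 by 1.08 and MRTO4, which holds the place of a stalk protein, by 1.05. BOP1, PES1 and WDR12 form 1 complex, and their log2 fold changes were −1.28, −0.37 and −0.91. PPAN (chr19:10106223-10112012) was at 20.7, 21.5 and 23.6 CPM in MRC5_Mo and 19.1, 20 and 17.9 in MRC5_CoH196. The groups stood close, and the log2 fold change of −0.21 ± 0.08 (edgeR adjusted p = 0.0149) was no longer called without MRC5_Mo replicate 3 (−0.16, edgeR adjusted p = 0.0961) or MRC5_CoH196 replicate 3 (−0.17, edgeR adjusted p = 0.079). PPAN had fractional counts in every library, as RSEM gives where reads match more than 1 gene model, and its values are uncertain.

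**Figure D2:**
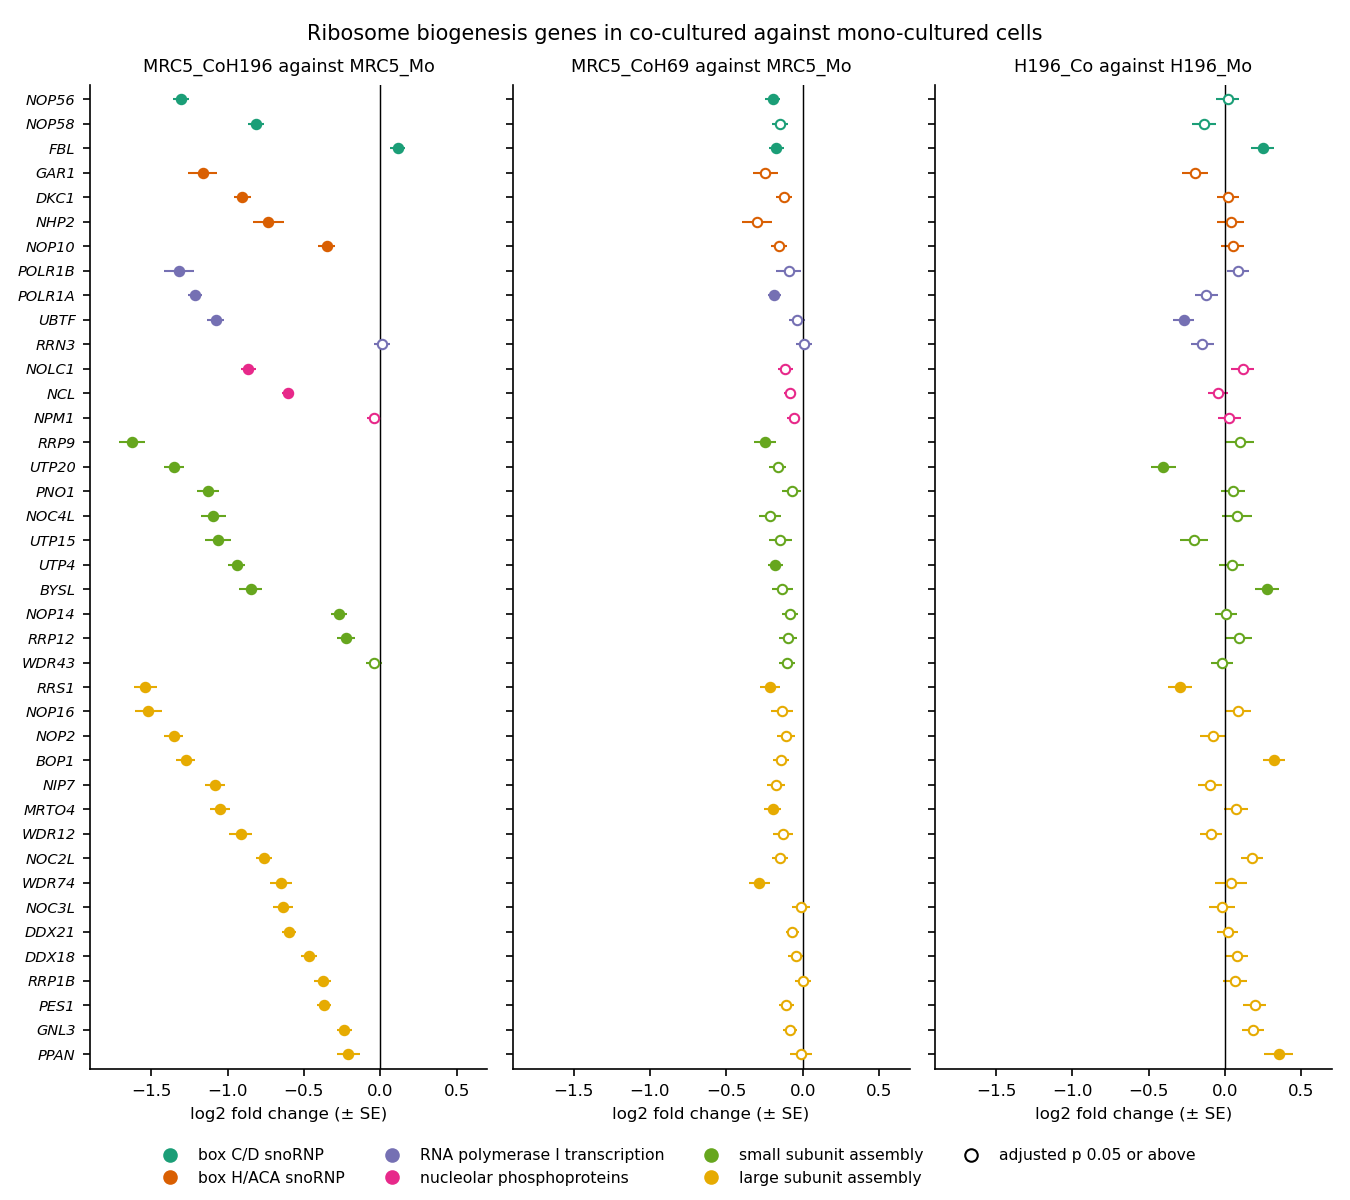
Log2 fold change (points) with its SE (bars) for each of the 40 genes, ordered by role and coloured by it, in MRC5_CoH196 against MRC5_Mo, MRC5_CoH69 against MRC5_Mo and H196_Co against H196_Mo; filled points passed an adjusted p under 0.05. In the left panel the 40 genes run from −1.63 (RRP9) to 0.11 (FBL), in the middle panel they lie between −0.30 and 0.01, and in the right panel they lie on both sides of 0.

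Because mRNAs for proteins of 1 particle or pathway moved by different amounts, the ratio of their counts was taken within each library. Such a ratio needs no scaling between libraries, and protein levels were not measured. The pairs were chosen after the values were seen and are given with no test. The log2 ratio of FBL to NOP56 was 0.02 ± 0.06 (SD, n = 3) in MRC5_Mo, 0.04 ± 0.02 in MRC5_CoH69 and 1.44 ± 0.10 in MRC5_CoH196. That of NOP10 to GAR1 was 1.86 ± 0.03, 1.95 ± 0.13 and 2.68 ± 0.11 in the same order. For PES1 to BOP1 it was 0.58 ± 0.05, 0.62 ± 0.04 and 1.49 ± 0.09, and for RRN3 to UBTF −1.23 ± 0.03, −1.18 ± 0.07 and −0.15 ± 0.11. In each of these pairs the MRC5_CoH196 libraries stood apart from both other MRC5 groups. In H196 cells the same ratios were 0.78 ± 0.06 in H196_Mo and 1.01 ± 0.09 in H196_Co for FBL to NOP56, 1.80 ± 0.16 and 2.05 ± 0.06 for NOP10 to GAR1, −0.59 ± 0.02 and −0.73 ± 0.10 for PES1 to BOP1, and −1.69 ± 0.02 and −1.57 ± 0.13 for RRN3 to UBTF. None of the 4 overlapped between the H196 groups, and all but PES1 to BOP1 were higher in H196_Co. Of the other pairs taken, RRN3 to POLR1B was 0.05 ± 0.06 in H196_Mo and −0.18 ± 0.08 in H196_Co. In MRC5 cells it went the other way, from 1.44 ± 0.10 in MRC5_Mo to 2.77 ± 0.23 in MRC5_CoH196. The means of FBL to NOP58, NHP2 to GAR1 and PES1 to WDR12 were higher in both H196_Co and MRC5_CoH196. No share over other pairs of genes was taken.

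**Figure D3:**
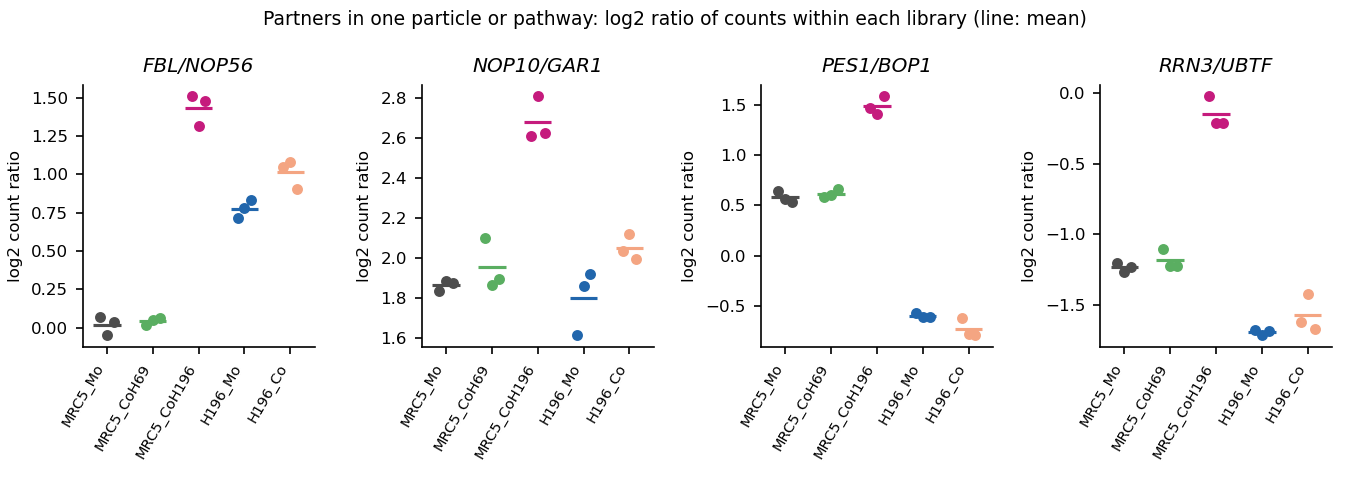
Log2 ratio of counts of 2 partner genes within each library (points, with the mean of the 3 libraries as a line) in the 5 groups; each panel has its own vertical range. The MRC5_CoH196 libraries lie above the MRC5_Mo and MRC5_CoH69 libraries in each panel, as in FBL to NOP56 with means of 1.44, 0.02 and 0.04.

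Genes with and without an E-box spanned much the same range of change, which is given with no test. The median log2 fold change in MRC5_CoH196 was −0.74 over the 16 genes with CACGTG, which ran from −1.63 (RRP9) to 0.11 (FBL), and −0.91 over the 17 genes without it, which ran from −1.52 (NOP16) to 0.01 (RRN3). Over all genes tested with a window the medians were −0.02 with the motif and −0.01 without it.

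**Figure D4:**
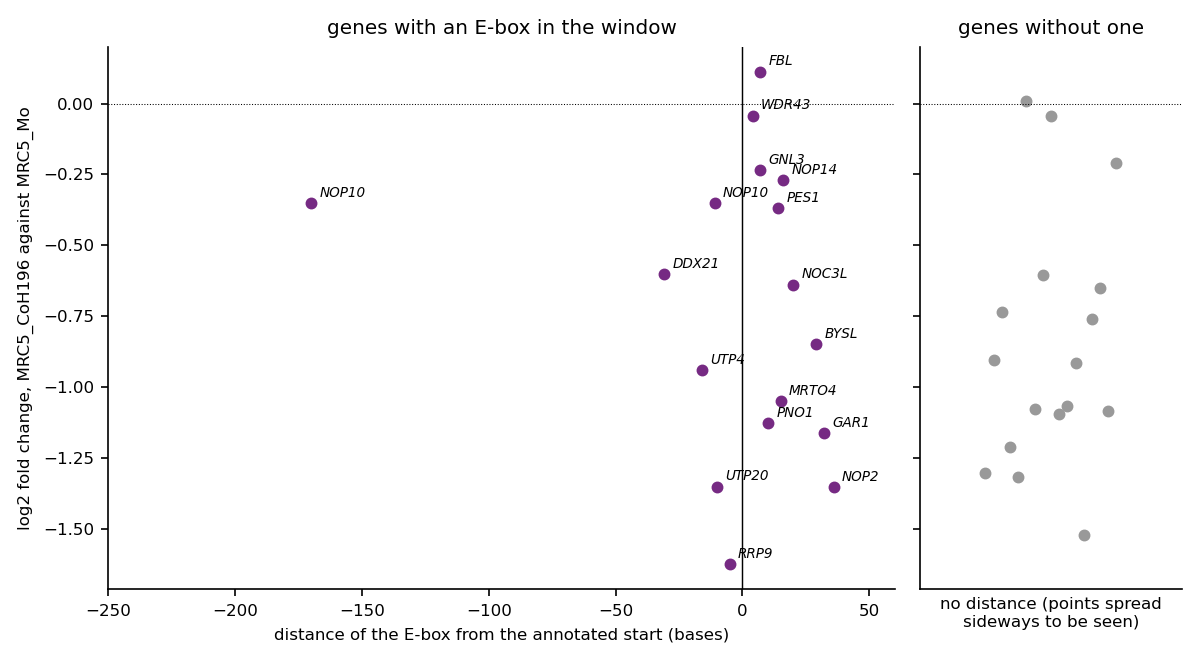
Log2 fold change in MRC5_CoH196 against MRC5_Mo by the distance of each E-box match from the annotated start, in bases, for the 16 genes with a match (left, NOP10 with 2 matches), and for the 17 genes without one (right, points spread sideways only to be seen). Matches lie mostly within 40 bases of the start, and both panels run from near 0 to below −1.5.

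Per length, the 5 most abundant genes in MRC5_Mo were NPM1 at 766 ± 45.5 FPKM (fragment counts scaled by gene length and library size; SD, n = 3), NOP10 at 253 ± 8.54, NHP2 at 172 ± 11.6, NCL at 172 ± 4.05 and FBL at 151 ± 7.86, of which NHP2 and NCL did not differ beyond their spread. The lowest was POLR1B at 2.46 ± 0.148 FPKM. NPM1 was the highest in all 5 groups, and POLR1B was the lowest in the 3 MRC5 groups, down to 0.873 ± 0.1 FPKM in MRC5_CoH196, where NPM1 was at 664 ± 11.6. The median log2 fold change in MRC5_CoH196 was −0.35 over those 5 genes and −0.91 over the other 35. In the order of FPKM within the set, NOP16 went from rank 12 in MRC5_Mo to 25 in MRC5_CoH196 and RRP9 from 24 to 33, while WDR43 went from 26 to 12 and RRN3 from 30 to 20. Mean FPKM was lower in MRC5_CoH196 than in MRC5_Mo for 40 of 40 genes and for 62.2% of all genes tested, on a scale that, like library totals, moved the median of all genes below 0.

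**Figure D5:**
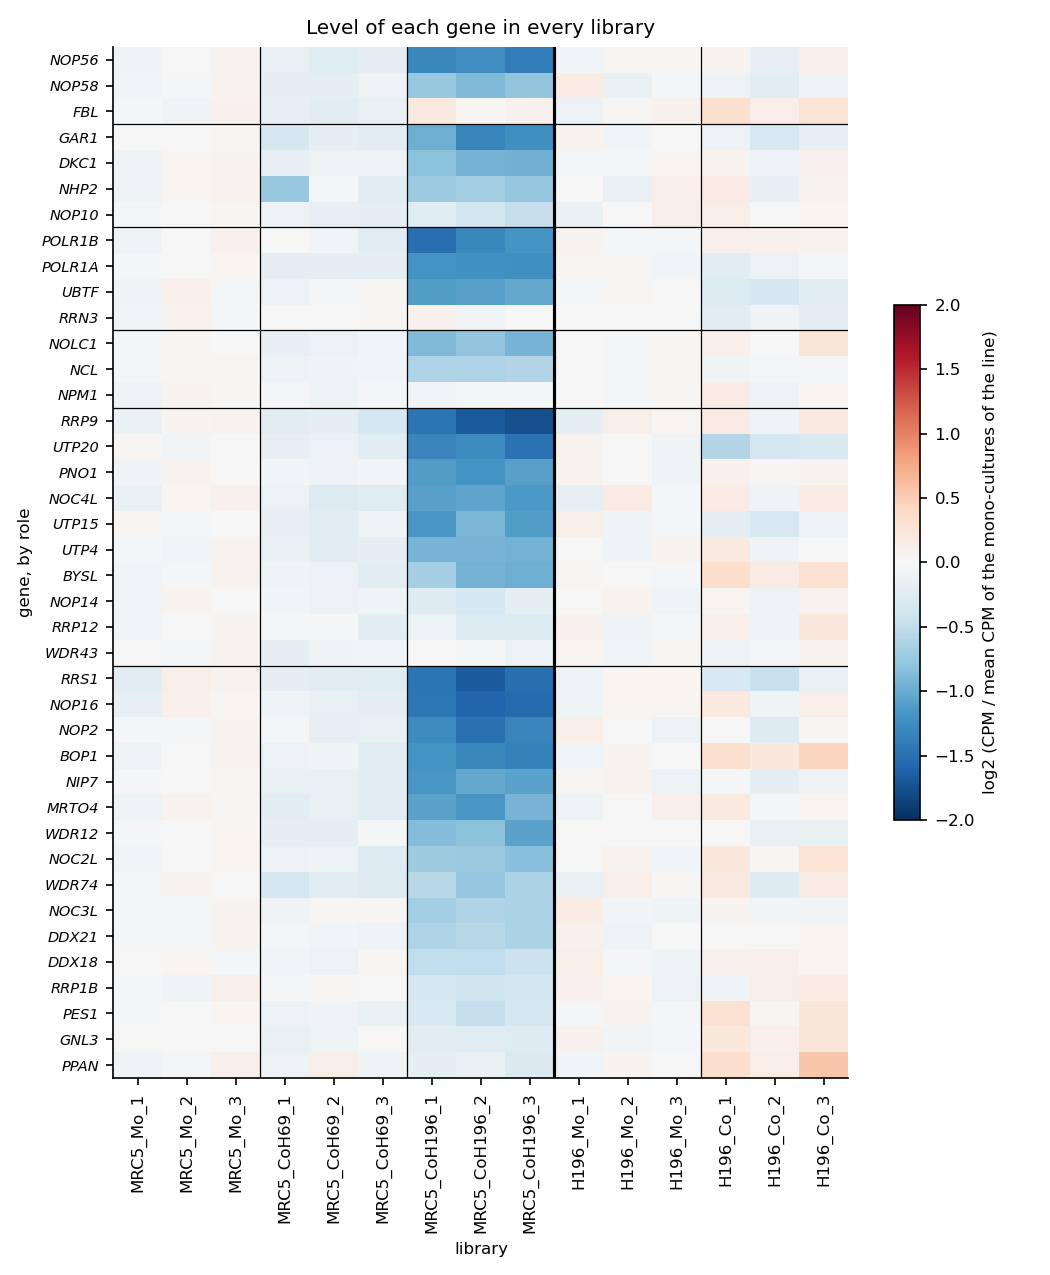
Log2 of the CPM of each of the 40 genes (rows, by role) in each library (columns), relative to the mean CPM of the mono-cultures of the same line; blue is lower and red higher. The 3 MRC5_CoH196 columns are blue in most rows, with FBL, RRN3, NPM1 and WDR43 near white, and NHP2 is low in MRC5_CoH69 replicate 1 (48.2 CPM against 80.2 and 69.9).

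Co-culture with H69 lowered far fewer of these genes, by small amounts. Of the 40, 8 fell against MRC5_Mo and 0 rose (edgeR adjusted p under 0.05), against 2.93% and 3.78% of all genes. None was a DEG, against 0.133% lower and 0.421% higher among all genes. Without adjustment 21 had a p under 0.05 on the lower side and 0 on the higher side, against 9.45% and 10.6% of all genes. By value 38 of the 40 lay below 0, with a median log2 fold change of −0.13, a 1.09-fold lower level, against 0.00 over all genes. The MRC5_CoH69 libraries lay below all MRC5_Mo libraries for 21 genes, against 12.1% of all genes. The called genes were WDR74, RRP9, RRS1, NOP56, MRTO4, POLR1A, UTP4 and FBL. The count was 1 without MRC5_Mo replicate 3, 2 without MRC5_CoH69 replicate 1, 3 without MRC5_Mo replicate 2, MRC5_CoH69 replicate 2 or MRC5_CoH69 replicate 3, and 12 without MRC5_Mo replicate 1.

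WDR74 (chr11:62832905-62841835), a factor of large subunit assembly, was at 20.8, 22.1 and 21.2 CPM in MRC5_Mo and 16.7, 18.3 and 17.8 in MRC5_CoH69. The groups did not overlap, with a log2 fold change of −0.28 ± 0.07 (edgeR adjusted p = 0.0136). RRP9 was at 22.3, 22.7 and 20.4 CPM in MRC5_CoH69, all below the MRC5_Mo values above, a log2 fold change of −0.25 ± 0.07 (edgeR adjusted p = 0.0389). RRS1 was at 58, 57.1 and 55.7 CPM, which overlapped the lowest MRC5_Mo library at 57, with a log2 fold change of −0.22 ± 0.06 (edgeR adjusted p = 0.0425). NOP56, at 85.6, 80.5 and 83.5 CPM, fell by 0.20 ± 0.05 (edgeR adjusted p = 0.0119), and its 2 groups did not overlap. MRTO4 (chr1:19251600-19263003) was at 46.4, 52.2 and 50.7 CPM in MRC5_Mo and 43.2, 44.7 and 42.4 in MRC5_CoH69, again without overlap, a log2 fold change of −0.20 ± 0.06 (edgeR adjusted p = 0.0378). Each of these 5 calls was lost when certain single libraries were left out; without MRC5_Mo replicate 2 the edgeR adjusted p was 0.0831 for WDR74, 0.167 for RRP9, 0.279 for RRS1, 0.0526 for NOP56 and 0.207 for MRTO4.

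NHP2 had the lowest value of this comparison, a log2 difference of −0.30 ± 0.10 that was not called (edgeR adjusted p = 0.0635), and 1 library stood apart, at 48.2 CPM against 80.2 and 69.9 in the other MRC5_CoH69 libraries. FBL, at 86.7, 83.2 and 87.3 CPM, fell by 0.17 ± 0.05 (edgeR adjusted p = 0.0371), whereas its value in MRC5_CoH196 was 0.11 with TMM factors and −0.06 with library totals. BOP1 was lower by count, with a log2 difference of −0.14 ± 0.05 that was not called (edgeR adjusted p = 0.113), but its mean FPKM was 44.1 ± 2.55 in MRC5_CoH69 against 40.9 ± 3.99 in MRC5_Mo, the single gene of the 40 whose mean FPKM was higher there. On library totals, genes of DNA replication and mitosis summed to 1558 to 1577 CPM in MRC5_CoH69, below the 1711 to 1994 of MRC5_Mo. By the calls with TMM factors 18 of the 20 fell and 0 rose, against 2.93% and 3.78% of all genes. Their part in these small changes was not tested.

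Set directly against each other, MRC5_CoH196 was lower than MRC5_CoH69 for 35 of the 40 genes and higher for 1 (edgeR adjusted p under 0.05), against 36.6% and 35.7% of all genes. As DEGs 24 were lower and 0 higher, against 13.1% and 15.2%. The median log2 fold change was −0.73 over the 40 and −0.01 over all genes. NOP16 (−1.38 ± 0.09, edgeR adjusted p = 7.86e-13), RRP9 (−1.38 ± 0.09, edgeR adjusted p = 7.35e-13) and RRS1 (−1.32 ± 0.07, edgeR adjusted p = 5.11e-14) had the lowest values. FBL was the gene that was higher, at 0.29 ± 0.05 (edgeR adjusted p = 1.91e-05), and its 3 MRC5_CoH196 libraries (99.8 to 111 CPM) lay above the 3 MRC5_CoH69 libraries (83.2 to 87.3 CPM). RRN3, NPM1, WDR43 and RRP12 were not called. This comparison and the 2 against MRC5_Mo share libraries.

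H196 cells co-cultured with MRC5 did not show a shared direction in these genes. Of the 40, 4 rose and 3 fell against H196_Mo (edgeR adjusted p under 0.05 over 12806 genes), against 12.0% and 7.78% of all genes. None was a DEG, against 3.26% higher and 0.601% lower among all genes. Without adjustment 7 had a p under 0.05 on the higher and 5 on the lower side, against 18.4% and 15.1% of all genes. The median log2 fold change was 0.04. The H196_Co libraries lay above all H196_Mo libraries for 6 genes and below them for 7, against 20.2% and 17.1% of all genes. The 40 genes made up 0.7% to 0.724% of all counts in H196_Mo and 0.656% to 0.701% in H196_Co, and these ranges overlapped. On library totals, genes of DNA replication and mitosis summed to 5384 to 5491 CPM in H196_Mo and 5088 to 5224 in H196_Co. With TMM factors 1 of the 20 was called higher and 0 lower, against 12.0% and 7.78% of all genes.

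PPAN was at 32.3, 34.9 and 33.7 CPM in H196_Mo and 42.8, 36.8 and 49.2 in H196_Co, with no overlap and a log2 fold change of 0.35 ± 0.09 (edgeR adjusted p = 0.0114). BOP1 was at 160, 174 and 166 CPM in H196_Mo and 208, 192 and 225 in H196_Co, a log2 fold change of 0.32 ± 0.07 (edgeR adjusted p = 0.00397), again with no overlap. BYSL (chr6:41921499-41933046), which acts late on the small subunit, was at 31.7, 31.3 and 30.2 CPM in H196_Mo and 39.7, 34.7 and 38.2 in H196_Co, a log2 fold change of 0.27 ± 0.08 (edgeR adjusted p = 0.0203). FBL also rose, by a log2 fold change of 0.25 ± 0.07 (edgeR adjusted p = 0.023). With library totals BYSL and FBL were no longer called (edgeR adjusted p = 0.0775 and 0.0756). Without H196_Co replicate 3 the number called higher was 1 and without H196_Co replicate 2 it was 7, while it was 2 without H196_Mo replicate 2 or H196_Co replicate 1. PPAN was lost without H196_Co replicate 3 (0.24, edgeR adjusted p = 0.11), and BYSL without H196_Co replicate 1 or 3 or H196_Mo replicate 2 or 3 (edgeR adjusted p from 0.0514 to 0.0935).

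The position listed for UTP20 (chr12:101240268-101386618) begins upstream of the RefSeq start used for its promoter stretch above, so the 2 sources disagree on where the gene starts. UTP20 was at 65.1, 61.1 and 59 CPM in H196_Mo and 41, 48.9 and 50 in H196_Co. All H196_Co libraries lay below H196_Mo, with a log2 fold change of −0.40 ± 0.08 (edgeR adjusted p = 0.00164). RRS1 was at 110, 119 and 120 CPM in H196_Mo and 94.4, 85.2 and 105 in H196_Co, a log2 fold change of −0.30 ± 0.08 (edgeR adjusted p = 0.0127) that was −0.27 without H196_Mo replicate 3 (edgeR adjusted p = 0.0646). UBTF (chr17:44205036-44221304) was at 140, 145 and 141 CPM in H196_Mo and 118, 113 and 123 in H196_Co, a log2 fold change of −0.27 ± 0.07 (edgeR adjusted p = 0.00835). These 3 genes fell in MRC5_CoH196 as well, UTP20 by 1.35, RRS1 by 1.54 and UBTF by 1.08.

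The 2 lines were then compared in 1 fit over all 15 libraries, in which the response of H196 cells to MRC5 was subtracted from the response of MRC5 cells to H196. This difference of responses was below 0 for 36 of the 40 genes and above 0 for 0 (edgeR adjusted p under 0.05), against 27.1% and 24.1% of all 13585 genes tested. With the size rule added it held for 30 genes, against 12.6% of all genes, and the median was −0.87 against −0.03 over all genes. RRP9 had the lowest value at −1.75 ± 0.13, followed by NOP16 at −1.63 ± 0.12 and BOP1 at −1.62 ± 0.09. FBL (−0.16 ± 0.09, edgeR adjusted p = 0.121), NPM1 (−0.10 ± 0.08, edgeR adjusted p = 0.323), WDR43 (−0.05 ± 0.08, edgeR adjusted p = 0.618) and RRN3 (0.13 ± 0.09, edgeR adjusted p = 0.215) were not called.

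Between the mono-cultures, H196 cells gave the larger share of their counts to these genes, 0.7% to 0.724% against 0.355% to 0.379% in MRC5_Mo. The mean FPKM was higher in H196_Mo for 33 of the 40. All genes leaned the same way on this scale. On log2(FPKM + 1) their median was −0.34 for MRC5_Mo against H196_Mo, and 58.9% were called lower and 29.3% higher in MRC5_Mo. NPM1 alone gave 0.239% to 0.25% in H196_Mo, and its level was 2324 ± 74.8 FPKM in H196_Mo against 766 ± 45.5 in MRC5_Mo. In the fit with TMM factors 12 genes were higher in MRC5_Mo and 18 lower (edgeR adjusted p under 0.05), against 42.6% and 44.0% of all genes. With library totals, which moved the median of all genes from −0.03 to −0.45, 4 were higher and 28 lower, and all genes split into 29.6% higher and 59.1% lower. NPM1 (−1.16 ± 0.06), FBL (−0.99 ± 0.06), WDR12 (−0.84 ± 0.07), POLR1B (−0.83 ± 0.07), NCL (−0.71 ± 0.05) and BOP1 (−0.70 ± 0.06) were DEGs lower in MRC5_Mo (31.5% of all genes were) and were lower under both scalings. RRP12 (0.91 ± 0.07), NOC4L (0.75 ± 0.09) and BYSL (0.64 ± 0.08) were DEGs higher in MRC5_Mo (30.2% of all genes) and were higher under both, at 0.48, 0.33 and 0.22 with library totals. Of the 10 small subunit genes 6 were called higher in MRC5_Mo and 1 lower with TMM factors, but 3 higher and 4 lower with library totals. Genes of DNA replication and mitosis were called lower in MRC5_Mo with TMM factors for 20 of 20, against 44.0% of all genes, and their part was not tested.

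Another 130 genes of ribosome biogenesis, listed by role, moved the same way in MRC5_CoH196 by smaller amounts. They were listed with earlier results of these data known, so they are no separate check on the 40. Of these 103 fell and 11 rose (57 and 5 as DEGs), against 37.1% and 37.2% of all genes (14.7% and 17.2% as DEGs). The median log2 fold change was −0.49. By role, 44 of 49 small subunit factors, 34 of 47 large subunit factors, 13 of 14 exonucleases of the precursor, 7 of 12 RNA polymerase I genes and 5 of 8 snoRNP assembly factors fell, to be read against the same 37.1%. NOL6, a scaffold of the small subunit processome, was at 111, 113 and 119 CPM in MRC5_Mo and 39.9, 36.5 and 35.8 in MRC5_CoH196, a log2 fold change of −1.61 ± 0.05. URB2, a large subunit factor, was at 15.1, 17.7 and 16.7 against 5.96, 4.37 and 5.41 CPM (−1.65 ± 0.11), and LTV1, an export factor of the small subunit, at 34.9, 37 and 36.8 against 14.1, 14 and 13.1 CPM (−1.40 ± 0.07). In each of the 3 the groups were far apart.

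Of the 11 that rose in MRC5_CoH196, 6 act on the large subunit, the role of 47 of the 130. RSL24D1, which holds the place of a ribosomal protein in the nuclear particle, was at 63.6, 62.2 and 59.2 CPM in MRC5_Mo and 105, 109 and 104 in MRC5_CoH196, a log2 fold change of 0.78 ± 0.05. EFL1, a GTPase of the last maturation step in the cytoplasm, was at 20.3, 18.9 and 19.2 against 34.3, 31.2 and 34.3 CPM (0.77 ± 0.06). NOP53, which guides the exosome to the precursor, was at 127, 124 and 118 against 193, 179 and 193 CPM (0.62 ± 0.05), and all 3 genes kept their groups apart. In MRC5_CoH69 8 of the 130 fell and 0 rose, against 2.93% and 3.78% of all genes. In H196_Co 5 rose and 4 fell, against 12.0% and 7.78%, and none of the 130 was a DEG in either comparison. The difference of responses between the lines was called below 0 for 100 of the 130 and above 0 for 9 (edgeR adjusted p under 0.05). Among all genes tested the shares were 27.1% and 24.1%.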

How the data were processed

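The MRC5 and H196 gene tables hold 9 and 6 libraries. Per the labels and the study's methods, the authors filtered the reads of poly(A) RNA with SOAPnuke. The reads were aligned to the GRCh38.p13 genome with HISAT2 (2.1.0) and to gene sequences with Bowtie2 (2.3.4.3), and genes were quantified with RSEM (1.3.1). The deposited values used here are RSEM expected counts (93.7% and 92.1% whole numbers), and the deposited FPKM, which the authors scaled per gene length and library. A further 18 and 12 columns of per-library values were not used, nor were text copies of both tables. Totals per library were 16073597 to 19170560 counts.

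Expected counts were rounded and tested with edgeR (4.0.16; R 4.3.3) by glmQLFit and glmQLFTest with TMM factors, filterByExpr by group and Benjamini-Hochberg adjustment over all genes tested, in 3 fits: 9 MRC5 libraries (12819 genes), 6 H196 libraries (12806) and all 15 (13585). A call needed an adjusted p under 0.05, a DEG also an absolute log2 fold change above 0.58. CPM of single genes are on TMM-scaled library sizes, set within each table, and are not compared between MRC5 and H196. Summed CPM of the marker genes and of the replication and mitosis genes are on library totals, without TMM factors. Groups came from sample titles. Genes were named by rule: the highest and lowest log2 fold change per role in MRC5_CoH196 against MRC5_Mo, the 5 largest changes called in MRC5_CoH69, up to 3 called in each direction in H196_Co, and the 3 highest and lowest DEGs of the list of 130; other named genes were chosen after their values were seen. The members and lists were chosen with earlier results of these data known. DESeq2 (1.42.0), limma (3.58.1) on log2(FPKM + 1) and log2(FPKM + 0.1), other scalings, other filters, a replicate block and leaving out each library were alternatives. The fitting code was tested on simulated data. Replicates differed by more than sampling noise (chi-square per degree of freedom 1.89 to 10.8, highest for H196_Co replicates 1 and 2). How strand was handled is not given in the sources used here. FBL, RRN3, NOC4L, UTP4 and BOP1 are listed on alternate sequences in the tables and are given without positions. One marker gene is not reported here and was left out of the summed marker levels.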

Additional observations from a re-analysis of the deposited data

Results flagged for a closer look

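The responses of the 2 lines to each other differed beyond the spread between libraries for 14 of the genes named by rule. The test was of the difference itself, in 1 edgeR fit with Benjamini-Hochberg adjustment. This difference was the response of MRC5 cells to H196 minus the response of H196 cells to MRC5, on the log2 scale. In each of the 14 genes it was below 0, as it was for 27.1% of all genes tested (adjusted p under 0.05). FBL, NPM1, WDR43 and RRN3, also named by rule, were not called. The genes were named for changes in libraries that this test also uses. The count of 14 and the p-values below are therefore no separate check. In snoRNP genes it was −1.35 for NOP56 (adjusted p = 2.44e-12), −0.99 for GAR1 (adjusted p = 2.07e-07), and −0.43 for NOP10 (adjusted p = 0.000349), and in the nucleolar phosphoproteins −1.01 for NOLC1 (adjusted p = 1.12e-10). For RNA polymerase I it was −1.43 for POLR1B (adjusted p = 8.4e-11) and −0.83 for UBTF (adjusted p = 1.92e-09). In small subunit assembly it was −1.75 for RRP9 (adjusted p = 2.69e-11), −1.15 for BYSL (adjusted p = 1.92e-09) and −0.97 for UTP20 (adjusted p = 1.71e-08). In large subunit assembly it was −1.62 for BOP1 (adjusted p = 5.16e-14), −1.27 for RRS1 (adjusted p = 3.63e-10), −1.15 for MRTO4 (adjusted p = 5.5e-10), −0.72 for WDR74 (adjusted p = 6.33e-05) and −0.59 for PPAN (adjusted p = 0.000245). BOP1, BYSL and PPAN were called in opposite directions in the 2 lines, whereas UTP20, RRS1 and UBTF fell in both and fell further in MRC5. No formal test for single outlying libraries was run on groups of 3.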

How the results depend on the processing

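In MRC5_CoH196 against MRC5_Mo 28 to 39 genes were called lower under the alternatives run. FBL, the 1 gene called higher, left 0 with library totals, the DESeq2 Wald test, limma on log2(FPKM + 1) or log2(FPKM + 0.1), no filter, only the groups compared, an adjusted p under 0.01, or an absolute log2 fold change above 0.58; its value was −0.06 with library totals and in both limma fits, where RRN3 was −0.17, −0.15 and −0.16. The median was −1.03, −0.90 and −1.03 in those 3 settings; in MRC5_CoH196 against MRC5_CoH69 it was −0.89, −0.77 and −0.89, with 0 called higher under the size rule. In MRC5_CoH69 against MRC5_Mo the number called lower was 4 with the DESeq2 Wald test, 1 in both limma fits, 1 at an adjusted p under 0.01 and 0 under the size rule. In H196_Co against H196_Mo library totals gave 2 higher, 6 lower and a median of −0.04, both limma fits 1 higher and a median of −0.05, an adjusted p under 0.01 1 higher, and the size rule 0 and 0. The median difference of responses was −0.94 with library totals and −0.79 with log2(FPKM + 1). In MRC5_Mo against H196_Mo library totals gave 4 higher, 28 lower and a median of −0.55, log2(FPKM + 1) and log2(FPKM + 0.1) 3 higher, 30 lower and medians of −0.54 and −0.56, the size rule 3 higher and 6 lower, and at least 10 counts in every library a median of −0.15. Library totals and FPKM also moved the median of all genes; beyond that the cause was not tested.

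Leaving out 1 library at a time gave these ranges. MRC5_CoH196 against MRC5_Mo had 35 to 36 genes lower, 0 to 1 higher and a median of −0.90 to −0.83, and RRN3 ran from −0.03 to 0.05. MRC5_CoH69 against MRC5_Mo had 1 to 12 lower, 0 higher and a median of −0.15 to −0.11, and MRC5_CoH196 against MRC5_CoH69 34 to 36 lower, 1 higher and a median of −0.75 to −0.69. H196_Co against H196_Mo had 1 to 7 higher, 2 to 3 lower and a median of 0 to 0.07. The difference of responses had 34 to 37 called below 0, 0 called above and a median of −0.90 to −0.80. MRC5_Mo against H196_Mo had 12 to 13 higher, 14 to 20 lower and a median of −0.14 to −0.10. Of 390 values of named genes under alternatives, 321 kept their direction and side of the threshold, 54 lost the call, 6 gained it and 9 changed sign.

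Replicate numbers did not pair the libraries (correlations of same-numbered deviations from −0.151 to 0.081 over 12 pairs); a replicate block gave 36 lower in MRC5_CoH196, 7 lower in MRC5_CoH69 and 3 higher and 3 lower in H196_Co. Depth does not limit these genes, whose lowest count was 106, but 3 libraries a group and relative scaling do limit changes as small as those in MRC5_CoH69 and H196_Co.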
